A study of Mus musculus with 2 samples.

Results

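RNA of primary chondrocytes, the cartilage cells, from the ribs of newborn mice aged 24 to 72 h (rib and articular cartilage in the methods) was sequenced as 1 control library and 1 *Myl3*-KO library, and 8 complement genes were followed in both. They encode the components *C3*, *C4b*, *C1ra*, *C1s1* and *Cfb* and the regulators *Serping1*, *Cd55* and *Cd59a*, and are 8 of the 22156 genes in the deposited table. The genes were chosen by symbol with the counts of these same libraries known, so every ratio below is a description and carries no test. *Myl3*-KO mice carried floxed *Myl3* alleles and a *Col2a1*-Cre transgene, which deletes *Myl3* in cells that have used the *Col2a1* promoter, while the controls are called wild type in the labels and floxed littermates without Cre in the methods. The mice were on a C57BL/6J background. Cells of both genotypes were grown as an untreated monolayer, and how many animals entered each library is not given in the sources used here. The libraries held 17612434.91 and 13477976.98 expected counts (reads assigned to genes by estimation), and *Myl3* itself had 0 counts in both, so the labels could not be checked on the deleted gene. The labelled cell type was only partly borne out, since *Acan*, *Matn1*, *Matn3* and *Hapln1*, which define cartilage cells, were at 0 in both libraries, so the cells are called chondrocytes after their label. With 1 library per genotype no difference has a replicate check, and in bulk RNA fewer cells of a type cannot be told apart from less RNA of a gene per cell.

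Complement is a cascade of blood and tissue proteins that marks surfaces for removal and attracts inflammatory cells. It starts by the classical, the lectin or the alternative route. In the classical route C1q binds a target, the protease C1r activates the protease C1s, and C1s cleaves C4 and C2. MASP proteases take the place of C1r and C1s in the lectin route, and factor B drives the alternative route. All routes meet at C3 and can end in a pore of terminal components in the membrane of the target. Host cells are shielded by inhibitors, among them C1 inhibitor, decay-accelerating factor and CD59, and connective tissue cells are known to make several components themselves.

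Of the 8 genes, *C1ra*, *C1s1* and *Cd59a* were clearly counted in both libraries, *C3* and *Cfb* were near 0, and *C4b*, *Serping1* and *Cd55* had 0 counts in both. Over the whole table, 32.8% of the genes had no count in either library. A gene entered the comparison with at least 10 counts over both libraries, which *C1ra*, *C1s1*, *Cd59a* and *C3* reached, and it was called at a ratio of at least 1.5-fold in CPM, the count scaled to the library total. In the *Myl3*-KO library 0 of these 4 genes were called, against 9.07% of the 12431 genes compared in this way. Their log2 ratios, *Myl3*-KO to control, lay between -0.29 and 0.24 with a median of 0.13, where the median of all genes compared was 0.02.

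**Figure D1:**
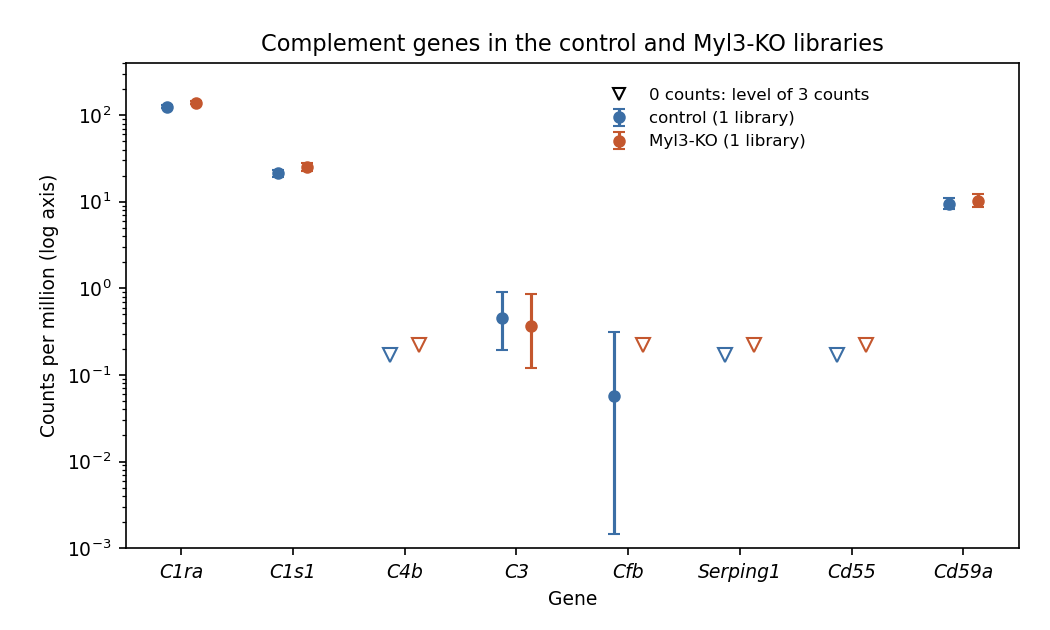
Level of the 8 complement genes in CPM on a log axis, with 1 point per library (blue control, orange *Myl3*-KO) and bars for the 95% Poisson counting interval. Open triangles mark a count of 0 and stand at the level of 3 counts. *C1ra* stands at 125 and 139 CPM, *C1s1* and *Cd59a* between 9.54 and 25.2 CPM, and the other genes at or below 0.454 CPM.

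Promoter sequences are shown for 2 genes that were counted and 2 that were at or near 0, so that they can be read against the levels. Of the 8 genes, 5 had an entry in the RefSeq promoter table of GRCm38.p6. The entry not printed is that of *C1ra*, the most abundant of the 8. Its window, chr6:124512371-124512620, lies mostly inside the annotated gene, which starts at 124512405, and held no motif match. Each sequence covers the 250 bases before the transcript start, 5′ to 3′ on the strand of the gene, and capitals mark matches to the motifs described below. The windows are chr6:124542360-124542609 on the minus strand for *C1s1*, chr2:104095551-104095800 on the plus strand for *Cd59a*, chr17:57228137-57228386 on the minus strand for *C3* and chr1:130462745-130462994 on the minus strand for *Cd55*.
C1s1: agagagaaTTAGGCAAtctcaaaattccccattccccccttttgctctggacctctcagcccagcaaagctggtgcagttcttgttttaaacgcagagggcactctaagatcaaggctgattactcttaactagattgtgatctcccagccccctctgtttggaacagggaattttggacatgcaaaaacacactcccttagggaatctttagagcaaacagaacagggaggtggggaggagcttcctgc
Cd59a: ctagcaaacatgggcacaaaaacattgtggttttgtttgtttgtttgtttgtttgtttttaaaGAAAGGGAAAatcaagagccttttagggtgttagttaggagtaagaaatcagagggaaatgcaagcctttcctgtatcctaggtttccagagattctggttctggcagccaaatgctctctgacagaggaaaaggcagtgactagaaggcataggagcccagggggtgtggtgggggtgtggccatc
C3: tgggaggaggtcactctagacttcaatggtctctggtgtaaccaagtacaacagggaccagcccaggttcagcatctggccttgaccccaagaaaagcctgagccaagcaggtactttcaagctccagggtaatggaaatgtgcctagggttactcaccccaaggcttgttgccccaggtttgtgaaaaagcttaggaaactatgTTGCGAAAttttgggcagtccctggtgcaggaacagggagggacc
Cd55: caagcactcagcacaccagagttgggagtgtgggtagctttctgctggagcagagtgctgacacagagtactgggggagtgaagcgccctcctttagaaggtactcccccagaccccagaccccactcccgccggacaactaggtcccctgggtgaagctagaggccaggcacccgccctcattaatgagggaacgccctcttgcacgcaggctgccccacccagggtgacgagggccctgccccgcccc

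The motifs, searched on both strands, were TATAAA (the TATA box), TTGCNNAA (bound by C/EBP factors), TTCNNNGAA (the gamma-activated site), GGGNNNTTCC (NF-kB) and GAAANNGAAA (the interferon response element). *C3* held 1 C/EBP match, at positions -45 to -38 counted from the transcript start, and *C1s1* held 1 on the opposite strand at -242 to -235. The table also lists a window from another *C1s1* start, chr6:124542322-124542571, which held no match, so the *C1s1* match depends on the start used. This motif occurs in 9.56% of the 32851 promoter windows of this length. *Cd59a* held 1 match to the interferon response element, at positions -187 to -178, which 2.98% of the windows hold. The *Cd55* window held no match to any of the motifs and had a GC content of 64%, against a median of 52.4% over all windows. TATAAA, TTCNNNGAA and GGGNNNTTCC, present in 12.4%, 7.02% and 4.65% of all windows, were found in none of the printed sequences. A match in letters is no evidence that a factor binds there.

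The proteases of the classical route were the most abundant of the 8 genes. *C1ra* (ENSMUSG00000055172, chromosome 6 from 124512405 to 124523443 on GRCm38, plus strand), which encodes the protease C1r, was counted 2209 times in the control and 1880 times in *Myl3*-KO. These are 125 CPM (95% Poisson interval 120 to 131) and 139 CPM (133 to 146), a log2 ratio of 0.15 with a 95% counting interval of 0.06 to 0.24. *C1s1* (ENSMUSG00000038521, chromosome 6 from 124530345 to 124542359, minus strand) encodes C1s, the protease that C1r activates, and had 374.99 and 339.99 counts. Its control level of 21.3 CPM compares with 25.2 CPM in *Myl3*-KO (log2 ratio 0.24, interval 0.03 to 0.46). Both genes were thus slightly higher in the *Myl3*-KO library and both stayed short of the 1.5-fold line.

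Levels of different genes can be compared in FPKM, which divides the reads by transcript length and library size. *C1ra* had 42.07 FPKM in the control and 46.79 in *Myl3*-KO, at percentiles 85.1 and 87.2 of all genes with an FPKM above 0. *C1s1* had 7.32 and 9.12 FPKM, near the middle of the genes at percentiles 47.3 and 50.5. Although C1r and C1s work in the same complex, the FPKM of *C1ra* was 5.75 times that of *C1s1* in the control and 5.13 times in *Myl3*-KO. Of their 31-base words, 59.6% (*C1ra*) and 47.6% (*C1s1*) also occur in other genes, which limits this comparison. Of the reads of this pair, *C1ra* held 85.5% in the control (95% Clopper-Pearson interval 84.1 to 86.8) and 84.7% in *Myl3*-KO (83.1 to 86.2), and the intervals overlap.

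The genes of the *C1ra* neighbourhood differed widely in count. *C1rl*, an r-like protease gene 1762 bases from *C1ra*, had 149 and 130 counts (log2 ratio 0.19), and *C1s1* lies 6902 bases away on the other side. *C1rb* and *C1s2*, the near copies of *C1ra* and *C1s1* in the same cluster, had 0 counts in both libraries and 2.01 counts in each. Of the 31-base words in the *C1ra* transcript, 56.9% also occur in *C1rb*, and 33.5% of those of *C1s1* occur in *C1s2*. The reads of a pair can thus be told apart only in part. *Gm16567* holds 15.5% of the words of *C1s1*. Summed with the near copy, the log2 ratio was 0.15 for *C1ra* and 0.25 for *C1s1*.

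The targets of C1s were not detectable at this depth or stood at 1 count. *C4b* (ENSMUSG00000073418, chromosome 17 from 34728380 to 34743882), which encodes C4, had 0 counts in both libraries. For this count of 0 the upper end of the Poisson interval was 0.209 CPM (control) and 0.274 CPM (*Myl3*-KO). The floor of 3 counts used for ratios stands lower, at 0.170 CPM (control) and 0.223 CPM (*Myl3*-KO). Of its 31-base words 48.3% also occur in *C4a*, for which no value was analysed here. *C2*, the other substrate of C1s, had 0 and 1 counts. *Tnxb*, 8565 bases from *C4b*, had 3 and 13 counts.

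*C3* (ENSMUSG00000024164, chromosome 17 from 57203970 to 57228136), the component at which all routes meet, received 8 control counts and 5 *Myl3*-KO counts. Its levels were 0.454 and 0.371 CPM (log2 ratio -0.29, interval -2.25 to 1.5), and an interval this wide gives no direction. The deposited FPKM of *C3* moved the other way, from 0.09 to 0.22, which is 2.44-fold higher. The transcript length implied by count and FPKM was 5.05 kb in the control and 1.69 kb in *Myl3*-KO, where GENCODE M21 lists a *C3* transcript of 5136 bases and others of 315 to 662 bases. For comparison, the length implied for *C1ra* was 2.98 kb in both libraries, and its transcript has 2981 bases. A gap of over 1.5-fold between the count ratio and the FPKM ratio was found for 1.22% of the genes compared. Of the genes near *C3*, *Gpr108* with 525 and 426 counts and *Trip10* with 830 and 702 lie on its promoter side, and *Tnfsf14* on the other side had 0 counts in both libraries.

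*Cfb* (ENSMUSG00000090231, chromosome 17 from 34856374 to 34862518) encodes factor B, which forms the C3-cleaving enzyme of the alternative route. The control library held 1 count and the *Myl3*-KO library 0, both under the floor of 3 counts, so no ratio is given. The locus overlaps *Gm20547*, which holds 75.5% of its 31-base words and had 0 counts in both libraries. *Nelfe*, which ends 2 bases from *Cfb*, had 728 and 519 counts. Factor D, the protease that activates factor B and is encoded by *Cfd*, had 0 counts in both libraries.

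Among the regulators the counts fell on *Cd59a* alone of the 3 genes. *Cd59a* (ENSMUSG00000032679, chromosome 2 from 104095801 to 104115354) encodes CD59, a membrane-anchored inhibitor of the terminal pore. Its 168 control counts and 139 *Myl3*-KO counts are 9.54 CPM (8.15 to 11.1) and 10.3 CPM (8.67 to 12.2), with a log2 ratio of 0.11 (interval -0.22 to 0.45). In FPKM it stood at 5.63 and 6.08, close to *C1s1*. The adjacent copy *Cd59b* had 0 counts in both libraries and shares 8.23% of the 31-base words of *Cd59a*.

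*Serping1* (ENSMUSG00000023224, chromosome 2 from 84765387 to 84775444) encodes C1 inhibitor, the serpin that inactivates C1r and C1s. It had 0 counts in both libraries, next to the well counted *C1ra*. None of its 31-base words occurs in another gene (0% shared), and its neighbours *Ube2l6* with 145 and 117 counts and *Clp1* with 369 and 294 were counted. *Cd55* (ENSMUSG00000026399, chromosome 1 from 130439027 to 130462744) encodes decay-accelerating factor, which takes apart the enzymes that cleave C3. *Cd55* and its near copy *Cd55b* had 0 counts in both libraries, and 11.2% of the words of *Cd55* occur in *Cd55b*.

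The other genes of the system were taken from lists of recognition molecules, proteases, terminal components, regulators and receptors. Of 59 listed genes 55 were found, *Itgam* in 2 rows, and 28 of these 56 rows had 0 counts in both libraries. Of the 16 with at least 10 counts, 7 were called higher in *Myl3*-KO and 0 lower, against 6.17% and 2.9% of all genes compared, with a median log2 ratio of 0.33. Restricted to at least 100 counts over both libraries, 3 of 11 were called higher, against 2.41% of all genes at that depth. These 3 were *Clu*, *Cfp* and *Lrp1*, and the last 2 stood at the 1.5-fold line. The lists were written with earlier results of these libraries known and many of the genes called had few counts, so the share is a description.

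**Figure D2:**
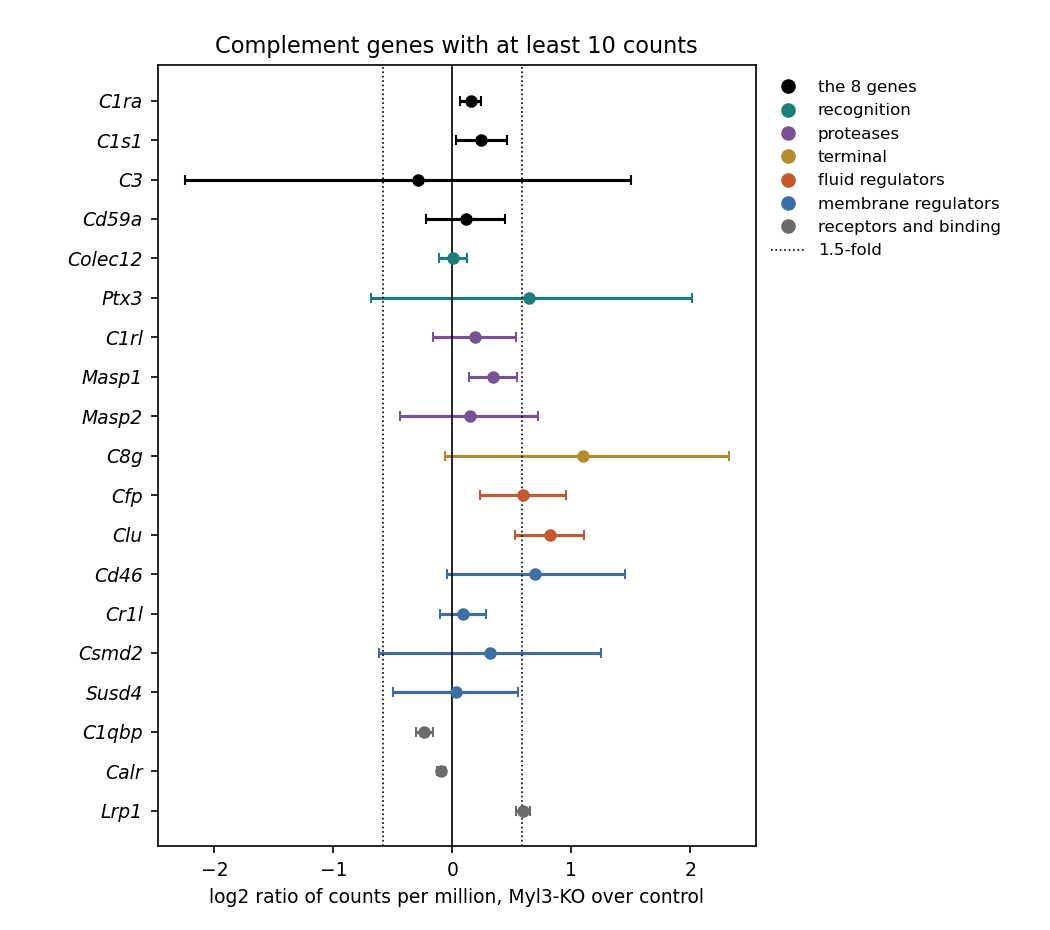
Log2 ratio of CPM, *Myl3*-KO over control, for 19 complement genes that were compared, coloured by role. Bars are 95% counting intervals, the solid line marks 0 and dotted lines mark 1.5-fold. The 4 genes in black lie between the dotted lines, and *C8g* lies farthest to the right of those drawn, at 1.10.

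Among the fluid-phase regulators, *Clu* and *Cfp* were each called higher in *Myl3*-KO. *Clu*, which encodes clusterin, a chaperone that also binds the terminal components, had 175 and 236 counts, a log2 ratio of 0.82 (0.53 to 1.11). *Cfp*, which encodes properdin, the stabiliser of the alternative route enzyme, had 123 and 142 counts and a log2 ratio of 0.59 (0.23 to 0.95). *Cfp* and the receptor gene *Lrp1* (4484 and 5170 counts, also 0.59) stood at the 1.5-fold line and were no longer called with TMM or DESeq2 scaling.

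Membrane regulators were led by *Cr1l*, which encodes Crry, a rodent inhibitor of the C3-cleaving enzymes with a role like that of CD55. It had 487 and 396 counts, a log2 ratio of 0.09 (interval -0.11 to 0.28). Its FPKM of 19.03 and 21.27 was 3.38 and 3.50 times that of *Cd59a*. *Cd46*, with 29 and 36 counts, was called at a log2 ratio of 0.70, although its interval of -0.05 to 1.46 was wide. *Susd4* had 73 and 57 counts and *Csmd2* 22 and 21, and neither was called.

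Of the proteases of the lectin route, *Masp1* had 416 and 403 counts, a log2 ratio of 0.34 (interval 0.14 to 0.54), and its FPKM of 8.58 and 10.87 was close to that of *C1s1*. It overlaps *Rtp4*, which had 59 and 63 counts. *Masp2* had 58.25 and 49.28 counts with a log2 ratio of 0.14, whereas its FPKM was 2.70 and 1.83, a log2 ratio of -0.56. It overlaps *Tardbp*, which lies on the other strand and had 9009.75 and 6372.72 counts. Whether the counting divided reads between them was not tested.

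Of 11 recognition genes listed, 6 were at 0 in both libraries and 2 could be compared. *C1qa*, *C1qb* and *C1qc*, which encode the chains of C1q, had 0 counts in both libraries, as had the mannose-binding lectin genes *Mbl1* and *Mbl2*. *Colec12*, a membrane collectin gene, had 1380 and 1062 counts and a log2 ratio of 0.01. *Ptx3*, a pentraxin gene whose product binds C1q, had 10 and 12 counts, a log2 ratio of 0.65 with an interval of -0.69 to 2.02. Of the terminal components, *C8g* had 11 and 18 counts (log2 ratio 1.10, interval -0.06 to 2.32) and overlaps *Fbxw5* with 1102 and 1036 counts, while *C6*, *C8a*, *C8b* and *C9* had 0 counts and *Hc*, which encodes C5, had 1 and 0. Of the receptor and binding genes, *Calr*, which encodes the C1q-binding chaperone calreticulin, had 15356 and 10993 counts (log2 ratio -0.10), and *C1qbp*, which encodes a mitochondrial protein that can bind C1q, had 4222 and 2746 (-0.23, interval -0.30 to -0.16), and neither was called. The anaphylatoxin receptor genes *C3ar1*, *C5ar1* and *C5ar2* had 0 counts in both libraries.

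**Figure D3:**
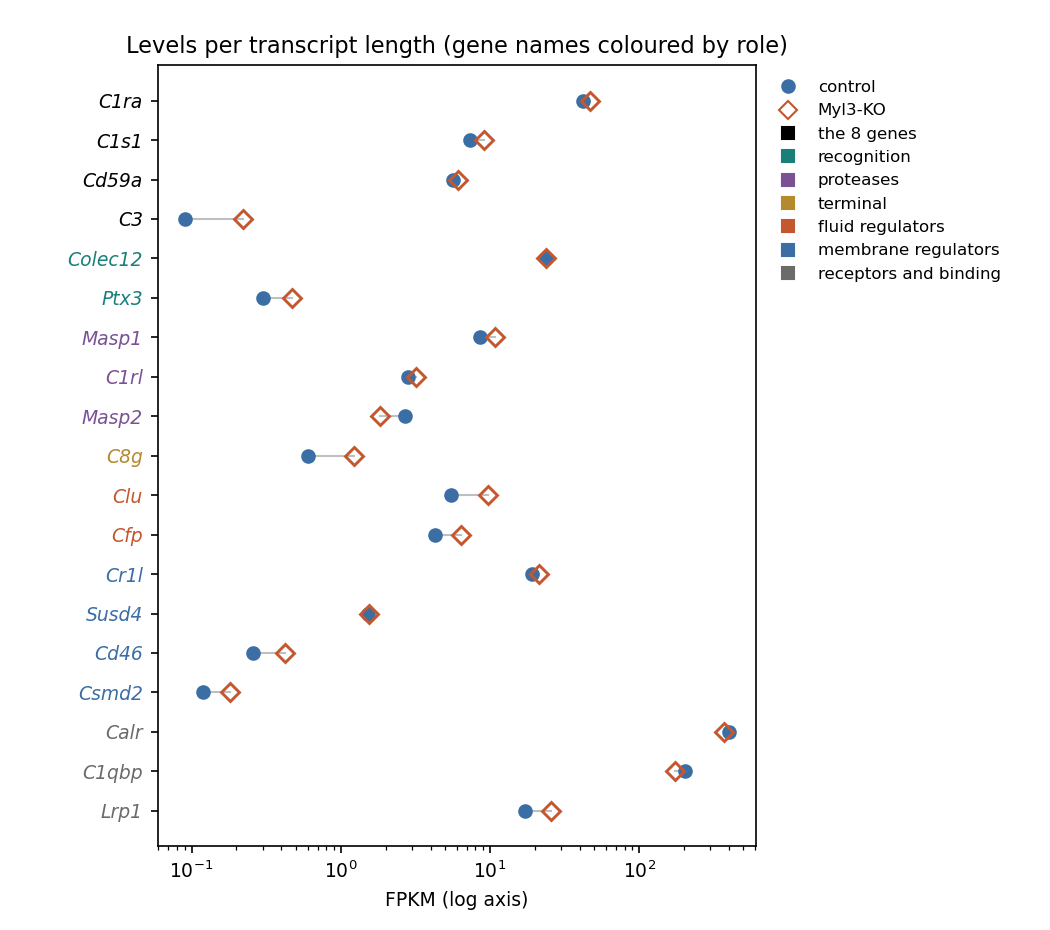
FPKM on a log axis of the same 19 complement genes, with a filled circle for the control and an open diamond for *Myl3*-KO, and gene names coloured by role. *C1ra* is the highest of the proteases at 42.07 and 46.79, *Cr1l* exceeds *Cd59a*, and *C3* lies at 0.09 and 0.22.

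The pathway column of the deposited table put 85 genes in the KEGG complement and coagulation cascades. Of these, 46 had 0 counts in both libraries and 25 were compared, that is 29.4% of the list, where 58.7% of all genes with a KEGG pathway were compared. In *Myl3*-KO 6 of the 25 were called higher and 1 lower, against 6.17% and 2.9% of all genes compared, and the median log2 ratio of the 25 was 0.15. Outside the complement lists 15 of these genes were compared, with 2 called higher and 1 lower, so the remaining higher calls repeat genes counted above. The calls outside those lists had few counts, namely *Vwf* with 22 and 29, *F13a1* with 10 and 13 and *Serpinf2* with 7 and 3. A higher minimum count was not applied to this list, so the share is a description.

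**Figure D4:**
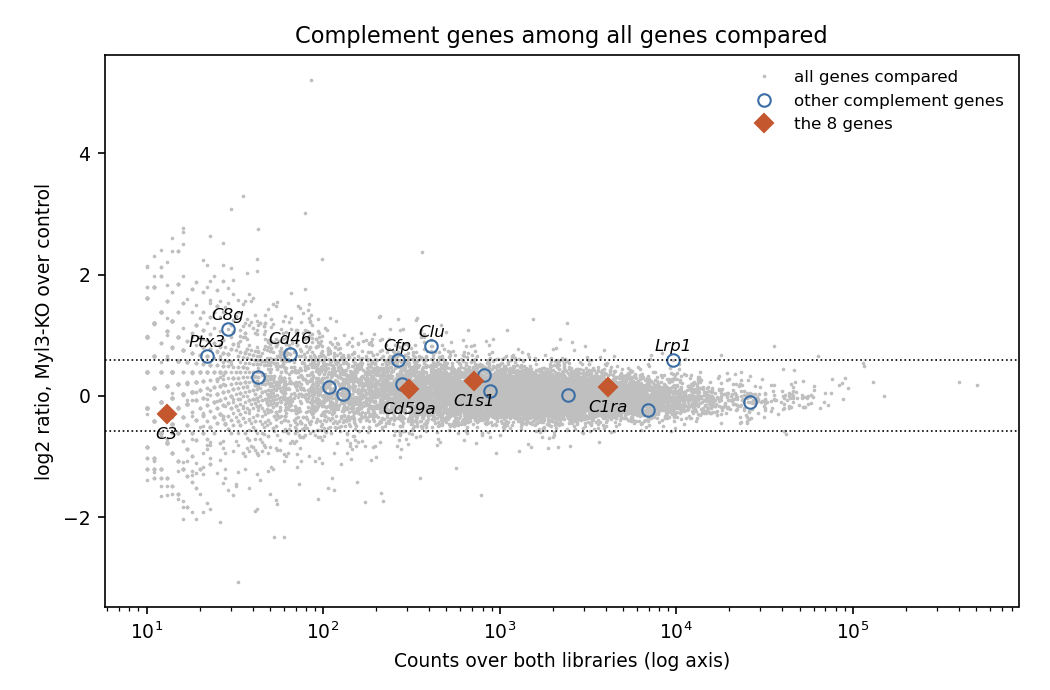
Log2 ratio (*Myl3*-KO to control) against the counts over both libraries on a log axis, for all 12431 genes compared (grey), the 4 of the 8 genes that were compared (orange) and 15 other complement genes (blue rings). Dotted lines mark 1.5-fold. *C1ra*, *C1s1*, *Cd59a* and *C3* lie inside the lines, and *Clu* and *C8g* lie above the upper line.

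Markers of the labelled and of other cell types were counted to describe the cells. Of 9 cartilage genes found, *Acan*, *Matn1*, *Matn3* and *Hapln1* were at 0 in both, *Col2a1* had 30 and 27 counts and *Sox9* had 866 and 480. The summed level of a list of 9 fibroblast genes was 15671 and 17874 CPM in control and *Myl3*-KO. Most of it was *Col1a2*, with 12017 and 14039 CPM, and *Thy1* was at 0 in both libraries. Of the 8 genes compared 2 were called higher and 2 lower, against 6.17% and 2.9% of all genes. The collagen-binding proteoglycan genes *Dcn*, with 631 and 155 counts, and *Lum*, with 272 and 81, were the lower ones, and the growth factor receptor genes *Pdgfra*, with 120 and 140, and *Pdgfrb*, with 3689 and 4617, were the higher ones. The summed level of 12 macrophage genes was 5.17 and 4.82 CPM, and 6 were at 0 in both libraries, among them *Adgre1*, *Cd163*, *Mrc1* and *Tyrobp*. Others of this list were counted at low levels. *Cd14* had 50 and 30 counts, *Cd68* 18 and 16, *Csf1r* 14.04 and 12 and *Lyz2* 6 and 5. Of 7 hepatocyte genes *Ttr*, *Ahsg*, *Fgb* and *Serpina1a* were at 0 and *Alb* had 1 and 0 counts, while *Afp* had 175 and 112. The part of any difference in cell make-up in the complement values was not tested.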

How the data were processed

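Per gene, the authors deposited an expected count, estimated from the reads and not normalized, and an FPKM, which is scaled by transcript length and depth, for 1 control and 1 *Myl3*-KO library. The submitters' processing notes name GRCm38, and the aligner, counter and strand setting are not given in the sources used here. The column headed NC was read as the control because the other is headed KO. Of the 22156 genes, 246 had no Ensembl identifier.

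Each count was scaled to its library total (CPM). Before a log2 ratio, any count below the floor was set to 3. Poisson and Clopper-Pearson intervals (95%) used rounded counts and cover counting error only. A gene was compared if its counts over both libraries reached 10, and called at 1.5-fold. With 1 library per genotype edgeR and DESeq2 have no residual degrees of freedom, so no test was run and they gave only scaling factors. The calculation of ratios and intervals was checked on simulated Poisson counts. These hold no variation between animals or cultures, so the check does not stand in for replicates.

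The genes, lists and rules were chosen with earlier results of these data known. The genes named are the 8 genes, other complement genes with at least 100 counts or past 1.5-fold, near copies, overlapping and neighbouring genes, and defining markers at or near 0. Complement genes named at lower counts, the counted macrophage genes, and *Col1a2*, *Dcn*, *Lum*, *Pdgfra*, *Pdgfrb* and *Tnxb*, were picked after their values were seen. Some genes that the lists hold and the counts include are not reported here by name. Coordinates and transcripts came from GENCODE M21 (GRCm38), which held 21881 of the identifiers. Python 3.11.15, scipy 1.17.1, R 4.3.3, edgeR 4.0.16 and DESeq2 1.42.0 were used.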

Additional observations from a re-analysis of the deposited data

How the results depend on the processing

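Under TMM or DESeq2 scaling, the FPKM ratio, 1 count added to each library and other filters or folds, the number of the 8 genes called stayed at 0 except with the FPKM ratio and with a fold of at least 1.2. Each of these called 1 of the 4 compared (25%), which was *C3* in both, higher by FPKM and lower by count. Of all genes compared, 9.94% were called with the FPKM ratio and 32.2% at 1.2-fold. The share of all genes called, 9.07% (1127 of 12431), was 8.8% with TMM and 8.82% with DESeq2 scaling. It was 5.82% (680 of 11683) with at least 10 counts in each library and 3.19% (334 of 10485) with at least 100 counts over both. At 1.2-fold 3998 of 12431 genes were called, and at 2-fold 416 (3.35%). The other complement genes called, 7 of 16, went to 3 of 11 at the minimum of 100 counts over both libraries. They went to 2 of 16 at 2-fold and to 5 of 16 with either scaling. Of 83 values of single genes under these alternatives, 82 stayed within the 95% counting interval of the reported value. The exception was *Masp2* with the FPKM ratio, at -0.56 against 0.14. This tally is no measure of stability, since each scaling moved all genes by the same small amount and wide intervals hold large changes. *C3* with the FPKM ratio, at 1.29 against -0.29, also lay within its interval. Scaling moved the median of all genes from 0.02 to -0.01. No paired analysis was possible because each genotype has 1 library. For the same reason no library could be left out. Depth limits *C3*, *Cfb*, *C4b*, *Serping1* and *Cd55*, whose counts lay near or under the floor.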

Other observations

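Cytokine genes, genes of cytokine signaling and genes that cytokines induce, such as acute-phase genes, were looked up as a separate list. Of its 22 genes 16 were compared, 1 was called higher and 0 lower in *Myl3*-KO, against 6.17% and 2.9% of all genes compared, and the median log2 ratio was 0.09. The gene called was *Il6*, which encodes interleukin-6, with 8 control counts and 17 *Myl3*-KO counts (log2 ratio 1.47, interval 0.18 to 2.89). *Il1b*, *Tnf* and *Ifng* had 0 counts in both libraries, as had the acute-phase genes *Lcn2* and *Saa3*. *Nfkb2* had 1316 and 1322 counts (log2 ratio 0.39) and *Cebpd* 108.56 and 71.88 (-0.21).

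The KEGG list also holds coagulation genes. *F2r*, a thrombin receptor gene, had 1613 and 1388 counts (log2 ratio 0.17) and *F3*, which encodes tissue factor, had 463 and 402 (0.18). Of the 15 genes of this list that lie outside the complement lists and were compared, 2 were called higher, *Vwf* and *F13a1*, each with fewer than 30 counts per library, and 1 lower, *Serpinf2* with 7 and 3 counts, against 6.17% and 2.9% of all genes compared. These genes were named after their values were seen.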
